A study of Mus musculus with 34 samples.

Results

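Immune checkpoint and costimulation genes set whether a T cell that meets its antigen is activated or held back. The members described here are 10 genes picked by symbol: Cd274, Pdcd1lg2, Pdcd1, Cd80, Cd86, Ctla4, Tigit, Lag3, Havcr2 and Ido1. Each had 1 row among the 24223 genes of the knockout count table. The study brushed cells from the tracheal epithelium of mice, sequenced their poly-A RNA, and asked how the airway changes after exposure to NNK, a nicotine-derived nitrosamine of tobacco smoke. All 28 mice of the time course were Gprc5a-/-, that is, they lacked a G protein-coupled receptor of lung epithelium, so that the control group carried the deletion too. The baseline group had 6 unexposed mice. The other 22 mice had NNK injected into the peritoneum at 50 mg/kg, 3 times a week over 8 weeks, and were sampled at the end of exposure (t0, 6 mice) or 2, 4 or 6 months later (t2, 5 mice; t4, 6 mice; t6, 5 mice). Each library is 1 mouse, named below by its group and animal number, and every library carries the same age label of 6 to 8 weeks. Unexposed mice as old as those of t0 to t6 were not analysed here, so that exposure, time and age cannot be told apart. A further 6 libraries came from unexposed wildtype mice and were quantified by another pipeline, so that they enter no test.

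Cd274 encodes PD-L1 and Pdcd1lg2 encodes PD-L2, the ligands of the receptor PD-1 (Pdcd1), which dampens signals from the T cell receptor. Cd80 and Cd86 are the B7 ligands that antigen-presenting cells show to CD28 for costimulation and to CTLA-4 for inhibition. Tigit, Lag3 and Havcr2 (TIM-3) are further inhibitory receptors of T and NK cells, and TIM-3 is also carried by dendritic cells and macrophages. Ido1 starts the breakdown of tryptophan to kynurenines, which restrains T cells. Interferon gamma is a textbook inducer of both Cd274 and Ido1.

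The table by mm10 coordinates placed Cd274 at chr19:29367438-29388095 and Pdcd1lg2 at chr19:29410919-29472928. In the RefSeq annotation both genes lie on the plus strand with 22823 bases between them. On chromosome 16 lie Cd86 at chr16:36603869-36666078, Cd80 at chr16:38458933-38486933 and Tigit at chr16:43648861-43664185. On chromosome 1 lie Ctla4 at chr1:60909025-60915833 and Pdcd1 at chr1:94038305-94052554. The rest were Lag3 at chr6:124904359-124911706, Ido1 at chr8:24584133-24595667 and Havcr2 at chr11:46454931-46481255. All are protein-coding genes. Annotated antisense genes overlap Cd274 (AC119228.1) and Pdcd1lg2 (A930007I19Rik), and the use of strand in counting is not given in the sources used here, so that reads of these pairs cannot be told apart.

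RefSeq promoter entries (GRCm38.p6) matched 7 of the 10 members, all but Cd86, Lag3 and Ido1. The 250 bases before the start given in the entry are printed for 3 of them. Cd80 and Tigit are shown because they had the smallest adjusted p-values at t0, and Pdcd1lg2 because it is the PD-1 ligand with the larger change. They are given 5′ to 3′ along the gene's strand, with a motif match in capitals, from chr16:38458683-38458932 (Cd80, plus), chr16:43664185-43664434 (Tigit, minus) and chr19:29410669-29410918 (Pdcd1lg2, plus).
Cd80: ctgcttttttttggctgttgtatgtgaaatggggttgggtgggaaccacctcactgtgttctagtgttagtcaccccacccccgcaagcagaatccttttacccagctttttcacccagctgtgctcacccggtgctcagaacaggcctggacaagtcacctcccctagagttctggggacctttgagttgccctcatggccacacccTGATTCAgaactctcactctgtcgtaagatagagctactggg
Tigit: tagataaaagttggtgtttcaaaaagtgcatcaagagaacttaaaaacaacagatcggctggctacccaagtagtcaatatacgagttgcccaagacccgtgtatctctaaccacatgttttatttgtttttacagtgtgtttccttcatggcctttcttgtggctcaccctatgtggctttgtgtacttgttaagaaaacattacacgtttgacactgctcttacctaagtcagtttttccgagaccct
Pdcd1lg2: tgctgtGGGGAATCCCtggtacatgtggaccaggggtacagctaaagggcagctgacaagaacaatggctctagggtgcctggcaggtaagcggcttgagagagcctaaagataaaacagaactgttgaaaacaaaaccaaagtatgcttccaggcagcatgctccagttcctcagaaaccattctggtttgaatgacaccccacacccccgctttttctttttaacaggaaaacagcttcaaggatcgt
4 motifs were searched on both strands, with overlapping matches counted for each: GAS (TTCNNNGAA), the ISRE core, AP-1 (TGANTCA) and NF-kB. An AP-1 match began at -42 in Cd80 and at -200 in Havcr2, and an NF-kB match began at -244 in Pdcd1lg2. The windows of Tigit, Cd274, Pdcd1 and Ctla4 held no match. Of the 32851 RefSeq windows of the same length, 6.75% held the AP-1 letters, 7.25% the NF-kB letters, 7.02% the GAS letters and 2.98% the ISRE core. A match describes these letters and is no evidence of binding. In the RefSeq gene annotation Cd80 begins at chr16:38457430, Cd274 at chr19:29362107 and Tigit, on the minus strand, at chr16:43665125, all upstream of their windows. For Tigit, Cd274 and Havcr2 the bases just after the window were not found in an annotated transcript. The windows may thus not lie at the start in use in these cells.

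The 28 knockout libraries held from 15625276 to 37609816 estimated counts. Gprc5a had 238 counts in t2 339 and 4 to 49 in all others, against 2115 to 8186 in the wildtype libraries. Library t2 339 also stood apart in the number of genes above 0 (14475). It had 0 counts for 7 members and for Cd3d, Cd3e and Cd3g. Library t0 375 held the highest level at t0 of 7 of the 10 members and a summed level of 13 T cell markers of 266.6 CPM, where the t0 median was 22.6. Haemoglobin genes took 15.3% of all counts in t6 349, 22.8% in t0 357 and 25.5% in t4 371, and the ribosomal repeat Rn45s took 14.8% in t6 365. Of markers of the labelled epithelium, 6 club cell genes summed to 65990 to 97820 CPM at baseline. Levels below are CPM, the usual depth-scaled counts, after TMM normalization. A gene was tested if it reached 1 CPM in at least 5 libraries, which 14847 genes did. Of the members 9 passed. Pdcd1lg2, Pdcd1, Tigit and Ido1 reached 1 CPM in at most 4 libraries outside t0 and so passed only with the help of t0, where they were high. Ctla4 reached it in 2 libraries and was fitted only with no filter or with the filter that edgeR supplies.

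At the end of exposure the PD-1 ligands, PD-1, Cd80, Tigit, Havcr2 and Ido1 were all higher than at baseline. In the comparison of t0 with baseline, 7 of the 9 tested members rose and none fell (edgeR quasi-likelihood test, Benjamini-Hochberg adjusted p under 0.05 over all tested genes). The other two, Cd86 and Lag3, were not called. Of all tested genes 23.3% rose, and 3304 fell. Every t0 library lay above every baseline library for 5 of the 9 (Cd274, Pdcd1lg2, Pdcd1, Cd80 and Tigit), as it did for 13.1% of all tested genes. The median log2 fold change was 2.87 over the 9 members and 0.02 over all genes. For Pdcd1lg2, Pdcd1, Tigit and Ido1, which passed the filter only with the help of t0, the filter itself favoured a rise. The other tested members reached 1 CPM in 5 or more libraries outside t0. Of these, Cd274, Cd80 and Havcr2 rose, and Cd86 and Lag3 were not called. In bulk samples, more cells of a type and more RNA per cell cannot be told apart. Scaling by library totals alone moved the median of all genes to 0.19, with 4331 genes higher and 1909 lower in place of 3457 and 3304, and 8 members rose, the 7 and Cd86.

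**Figure D1:**
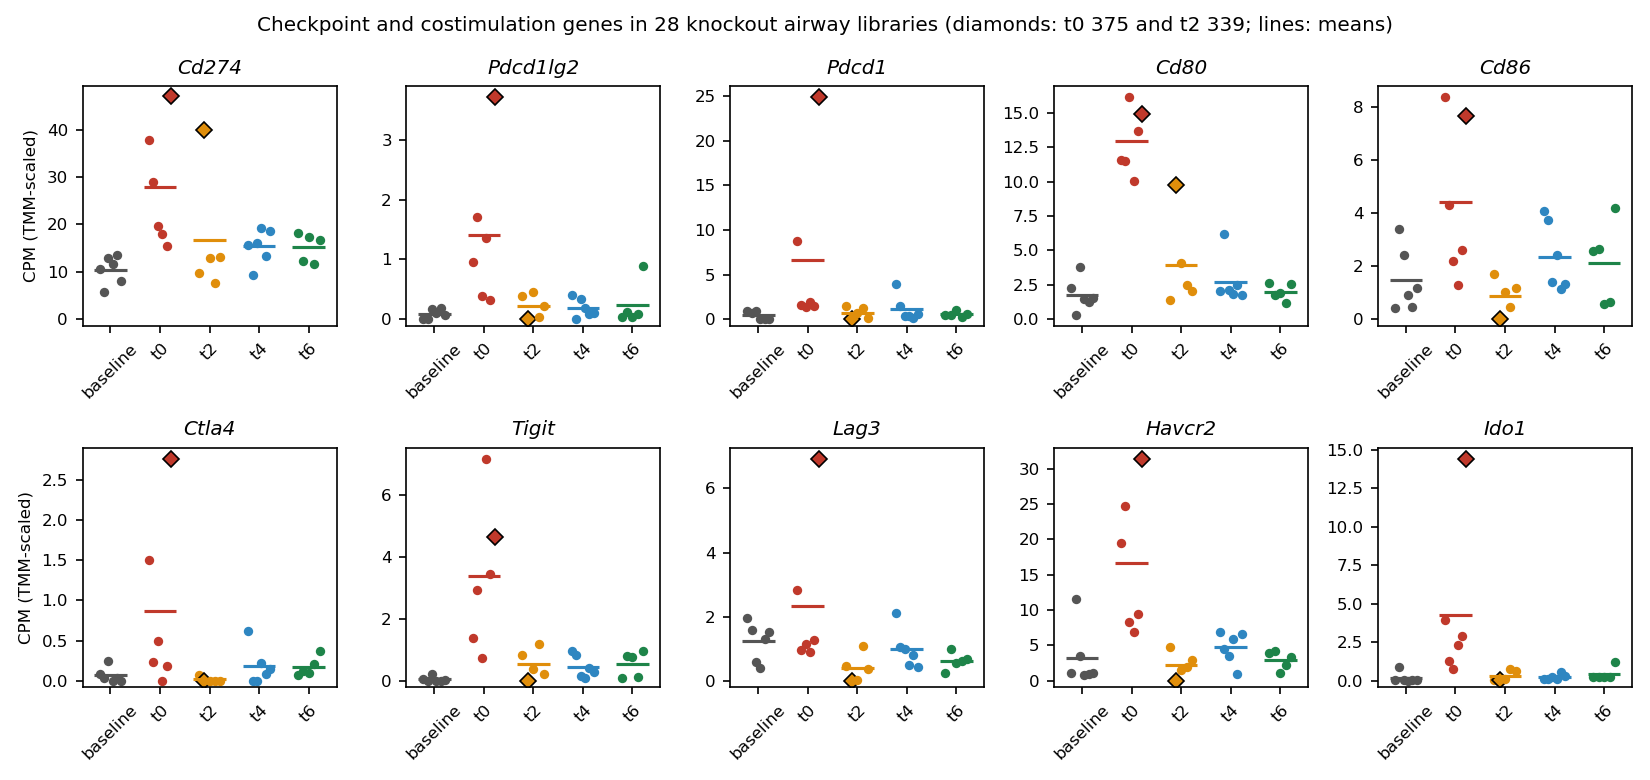
Level of each member (CPM, y axis from 0, 1 panel a gene) in each of the 28 knockout libraries by group, with the group mean as a line. Diamonds mark t0 375, which is the highest t0 library for 7 members, and t2 339, which is at 0 for 7 members but has the highest t2 values of Cd274 (39.95 CPM) and Cd80 (9.78 CPM).

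Of the ligands of PD-1, Cd274 was measured in every library. Its level at baseline was 5.78 CPM at the lowest, 11.2 at the median and 13.6 at the highest, and at t0 it was 15.5, 24.3 and 47.2 CPM. The groups did not overlap, and t0 375 and t0 332 (37.7 CPM) were the highest. The rise was 2.67-fold (log2 1.42 ± 0.33 SE, adjusted p = 0.000891 by the edgeR quasi-likelihood test). At t2 the libraries read 7.54, 9.66, 12.9, 13.0 and 39.95 CPM, and the last of these, t2 339, alone lay above the baseline range. The t4 libraries ran from 9.27 through a median of 15.9 to 19.3 CPM, and the t6 libraries read 11.6, 12.3, 16.8, 17.4 and 18.3 CPM. No later time was called against baseline, with log2 differences of 0.68 ± 0.34 at t2, 0.56 ± 0.32 at t4 and 0.55 ± 0.34 at t6 (adjusted p = 0.156, 0.225 and 0.345, edgeR). Against t0, Cd274 was lower at t4 and t6, with log2 differences of -0.85 ± 0.32 and -0.87 ± 0.34 (adjusted p = 0.0423 and 0.0456, edgeR), and t2 was not called (-0.74 ± 0.34, adjusted p = 0.102). Both calls lie close to the threshold. The t4 call ended without any 1 of 7 libraries (t0 332, 357 and 375; t4 335, 336, 340 and 371), and the t6 call without any 1 of 13, with the largest adjusted p, 0.143 and 0.14, without t0 375. The value at t2 rests on t2 339. Without it the difference from t0 was -1.37 and was called (adjusted p = 0.000733, edgeR), and the difference from baseline was 0.051 (adjusted p = 0.917). With all libraries both limma fits called t2 against t0 (adjusted p = 0.0379 and 0.0369).

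Pdcd1lg2 was read from few counts. Over the 6 baseline libraries it had 14 counts in all and 2 libraries at 0, and over the 6 t0 libraries 194 counts. Its level was 0 to 0.193 CPM at baseline and 0.321 at the lowest, 1.15 at the median and 3.71 at the highest at t0, with no overlap. The fitted rise was 3.90 ± 0.95 on the log2 scale (adjusted p = 0.00145, edgeR). Later groups were low again, at 0 to 0.448 CPM at t2, 0 to 0.399 at t4 and 0.0308 to 0.122 at t6 save for t6 368, which stood at 0.89 CPM. Against t0 the log2 differences were -2.67 ± 0.93 at t2, -2.82 ± 0.89 at t4 and -2.54 ± 0.92 at t6 (adjusted p = 0.0308, 0.0148 and 0.0292, edgeR). The t2 call ended without t2 358 (adjusted p = 0.0692) or t2 360 (0.0528). The t6 call ended without t6 341, 349, 365 or 366, with adjusted p between 0.0647 and 0.0733. Without t0 332, 357, 367 or 375 or t6 368, Pdcd1lg2 did not pass the filter and was not tested.

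Pdcd1, the receptor PD-1 of activated T cells, was at 0.0364 to 0.967 CPM at baseline. At t0 its lowest, median and highest values were 1.35, 1.74 and 24.9 CPM. All t0 libraries were above all baseline libraries, but t0 375 and t0 332 (8.75 CPM) stood above the rest, which lay at 1.92 CPM or below. The rise was 3.84 ± 1.01 on the log2 scale (adjusted p = 0.00272, edgeR), and 2.7 without t0 375 (adjusted p = 0.0206). The t2 libraries read 0, 0.177, 0.688, 1.23 and 1.52 CPM, the t4 libraries 0.0817 to 3.93 with a median of 0.476, and the t6 libraries 0.213, 0.434, 0.459, 0.603 and 0.985. These ranges overlap that of baseline. Against t0, Pdcd1 was lower, with log2 differences of -3.19 ± 1.04, -2.52 ± 0.94 and -3.61 ± 1.07 (adjusted p = 0.0211, 0.0394 and 0.00855 at t2, t4 and t6, edgeR). Without t0 375 these differences were -2.05 (adjusted p = 0.118), -1.37 (0.262) and -2.46 (0.0494). The t2 call also ended without t2 360 (0.0503), and the t4 call without t0 332 or any of t4 336, 340, 348, 371 and 377 (0.0532 to 0.0819). Without t4 335 the t4 difference was -3.53.

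Of the B7 ligands, Cd80 had the smallest adjusted p of the tested members at t0. Its level was 0.329, 1.49 and 3.78 CPM at baseline and 10.02, 12.6 and 16.2 CPM at t0 (lowest, median and highest). The groups did not overlap, and the highest was t0 359, which had the lowest Ptprc (23.5 CPM) and Cd3e (0.772 CPM) of t0. The rise was 7.31-fold (log2 2.87 ± 0.47, adjusted p = 1.72e-05, edgeR). At t2 the libraries read 1.41, 2.04, 2.45, 4.10 and 9.78 CPM, the highest being t2 339, in which no Cd3d, Cd3e or Cd3g count was recorded. The t4 libraries ran from 1.73 through a median of 2.09 to 6.23 CPM, and the t6 libraries read 1.19, 1.75, 1.91, 2.53 and 2.64 CPM. All later libraries lay below all t0 libraries. Its log2 differences from t0 were -1.71 ± 0.48, -2.25 ± 0.46 and -2.69 ± 0.50 (adjusted p = 0.00716, 0.000321 and 0.000103 at t2, t4 and t6, edgeR), and without t2 339 the difference at t2 was -2.37. Against baseline no later time was called (1.16 ± 0.46, 0.62 ± 0.45 and 0.18 ± 0.47, adjusted p = 0.0751, 0.348 and 0.873, edgeR). The t2 difference was called by DESeq2 (adjusted p = 0.0488) and without baseline 345 (1.53, adjusted p = 0.0259, edgeR) or t2 334 (0.0434), but without t2 339 it was 0.497 (adjusted p = 0.42).

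Cd86, the other B7 ligand, did not pass the threshold at t0. Its values were 0.425, 1.04 and 3.40 CPM at baseline and 1.298, 3.46 and 8.39 CPM at t0, and 3 of the 6 t0 libraries lay above the baseline range. The difference was 1.58 ± 0.68 on the log2 scale (adjusted p = 0.058, edgeR). It passed under 6 of 13 other settings, including DESeq2 (0.0301), and without baseline 344, t0 359, t0 367 or t2 339. At t2 Cd86 was lower than at t0 (-2.33 ± 0.75, adjusted p = 0.019, edgeR), with values of 0, 0.446, 1.03, 1.20 and 1.71 CPM, the 0 being t2 339. Without t2 339 and t0 375 together, a setting chosen after seeing the data, that difference was -1.78 (adjusted p = 0.0516). The t4 and t6 groups, at 1.14 to 4.08 and 0.585 to 4.19 CPM, differed from t0 by -0.90 ± 0.67 and -1.05 ± 0.71 (adjusted p = 0.328 and 0.249, edgeR).

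Among the inhibitory receptors, Tigit had the largest fitted rise of the 9 tested members. It had 8 counts in all at baseline, with 3 of 6 libraries at 0, and 443 at t0. Its level was 0 to 0.208 CPM at baseline and 0.717, 3.19 and 7.17 CPM at t0, without overlap. The rise was 5.95 ± 1.00 on the log2 scale (adjusted p = 2.29e-05, edgeR), and 7.36 without baseline 345, which held 6 of the 8 baseline counts. Tigit had its t0 maximum in t0 367 (138 counts), where Cd3e was at 0.831 CPM against 16.1 in t0 375. Tigit was also the only member called at later times. It read 0, 0.221, 0.379, 0.837 and 1.19 CPM at t2, 0.0904 to 0.951 with a median of 0.348 at t4, and 0.0724, 0.122, 0.770, 0.796 and 0.948 at t6. Above the whole baseline range were 4 of 5, 4 of 6 and 3 of 5 libraries. The log2 differences from baseline were 3.28 ± 0.98, 3.07 ± 0.97 and 3.33 ± 0.97 (adjusted p = 0.0193, 0.026 and 0.0298, edgeR).

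These late differences of Tigit rest on the near absence of counts at baseline. Limma on log2(CPM + 1) called none of them (0.49, 0.44 and 0.52, adjusted p = 0.233, 0.268 and 0.282), nor did limma on log2(CPM + 0.1) (1.75, 1.76 and 1.90, adjusted p = 0.0588, 0.0506 and 0.0719). The t2 call ended without t2 358 (adjusted p = 0.0626, edgeR). The t4 call ended without baseline 343, 344 or 356 or t4 335 or 336 (0.0506 to 0.0745), and with sex, read from Y-linked counts, as a covariate (0.0527). The t6 call ended without baseline 343, 344, 352, 355 or 356 or t6 349, 365 or 368 (0.0581 to 0.0659), and without the 5 libraries with much haemoglobin or Rn45s RNA or few genes (0.104). Without baseline 345 the differences were 4.69, 4.48 and 4.74. Against t0, Tigit was lower, with log2 differences of -2.67 ± 0.86, -2.88 ± 0.82 and -2.62 ± 0.85 (adjusted p = 0.0193, 0.00728 and 0.0164 at t2, t4 and t6, edgeR).

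Havcr2, which myeloid cells carry as well as T cells, was higher at t0. Its baseline values were 0.873, 1.11 and 11.55 CPM, the highest being baseline 344 by a wide gap, and its t0 values were 6.86, 14.4 and 31.4 CPM. Only baseline 344 reached into the t0 range. Havcr2 rose 5.25-fold (log2 2.39 ± 0.72, adjusted p = 0.00825, edgeR), and by 3.48 without baseline 344. The t2 libraries read 0, 1.45, 1.90, 2.92 and 4.79 CPM and the t6 libraries 1.08, 2.25, 3.39, 3.94 and 4.23, all below t0, while t4 reached 6.93 CPM. The log2 differences from t0 were -2.92 ± 0.79, -1.81 ± 0.71 and -2.48 ± 0.78 (adjusted p = 0.00613, 0.0488 and 0.0125 at t2, t4 and t6, edgeR). The t4 call ended without any 1 of 17 libraries (adjusted p up to 0.117, without t0 375) and under 7 of 13 other settings.

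Lag3, a receptor for MHC class II, did not differ detectably between baseline and t0. Its values were 0.388, 1.42 and 1.97 CPM at baseline and 0.883, 1.22 and 6.93 CPM at t0, where only t0 375 and t0 332 (2.83 CPM) lay above the baseline range. The log2 difference was 0.93 ± 0.66 (adjusted p = 0.26, edgeR), and 0.208 without t0 375 (adjusted p = 0.819). At t2 Lag3 read 0, 0.0344, 0.354, 0.456 and 1.08 CPM and at t6 0.253, 0.554, 0.609, 0.689 and 0.98 CPM. It was lower than at t0, with log2 differences of -2.60 ± 0.76 at t2 and -1.91 ± 0.73 at t6 (adjusted p = 0.00994 and 0.0383, edgeR), and t4 was not called (-1.24 ± 0.67, 0.163). Without t0 375 neither call held (-1.88 and -1.19, adjusted p = 0.0521 and 0.187). The t6 call also ended without t0 332 or t6 341, 365, 366 or 368 (0.0593 to 0.0935), and without t2 358 the t2 difference was -3.48.

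Ctla4, which competes with CD28 for the B7 ligands, was close to the limit of detection. It had 11 counts over the 6 baseline libraries and 127 over the 6 t0 libraries, of which t0 375 held 67 and t0 332 held 33, while t0 367 had 0. In the fit without a filter it rose by 3.58 ± 1.04 on the log2 scale (adjusted p = 0.00847, edgeR). With the filter that edgeR supplies the rise was 3.57 ± 1.02 (adjusted p = 0.00567, edgeR). At t2 only t2 334 had any, with 2 counts, and the fitted log2 difference from t0 was -5.45 ± 1.3 (adjusted p = 0.00263, edgeR). The summed counts put t0 59.6 times above t2, with a 95% interval, exact binomial on the summed counts, of 16.2 to 497 that covers counting error only. The t4 and t6 groups had 29 counts each and were called neither against baseline nor against t0.

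Ido1 had 31 counts at baseline, of which baseline 344 held 24, and 599 at t0. It read 0, 0.071 and 0.877 CPM at baseline and 0.745, 2.64 and 14.4 CPM at t0 (lowest, median and highest). Leaving aside baseline 344, the groups did not overlap. Ido1 rose by 4.44 ± 0.93 on the log2 scale (adjusted p = 0.000317, edgeR), by 3.51 without t0 375 and by 6.20 without baseline 344. The t2 libraries read 0.0324, 0.038, 0.103, 0.62 and 0.78 CPM, the t4 libraries 0.123 to 0.572, and the t6 libraries 0.214, 0.216, 0.244, 0.253 and 1.21. Only t2 358 and t6 368 of these reached the lowest t0 value. The log2 differences from t0 were -3.76 ± 0.96, -4.14 ± 0.93 and -3.303 ± 0.93 (adjusted p = 0.00357, 0.000885 and 0.00592 at t2, t4 and t6, edgeR). Without t0 375 they were -2.83, -3.21 and -2.37 and were still called (0.019, 0.00575 and 0.0337). Without t2 358 the difference at t2 was -4.45, and without t6 368 that at t6 was -4.18.

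After exposure ended, most members were lower than at t0 and few differed from baseline. Against baseline Tigit alone rose at t2, t4 and t6, and no member fell. Lag3 at t2 differed by -1.67 ± 0.74 (adjusted p = 0.106, edgeR) and was called lower, with Tigit no longer called, by limma on log2(CPM + 0.1) (-1.83, adjusted p = 0.028) and without t2 358 (-2.55, adjusted p = 0.0306, edgeR). Of all tested genes 11.2%, 10% and 4.54% rose at those times. The median log2 difference of the 9 members was 0.67, 0.62 and 0.53, beside 0.02, 0.01 and -0.01 over all genes. Against t0, 8 of 9 fell at t2 (all but Cd274), 7 at t4 (all but Cd86 and Lag3) and 8 at t6 (all but Cd86), and none rose. Over all tested genes 14.2%, 17.5% and 20.5% fell. These comparisons share the t0 libraries with the comparison of t0 with baseline, so that they are no independent evidence of a transient rise. The filter also favoured a fall from t0 for Pdcd1lg2, Pdcd1, Tigit and Ido1, which passed it only with the help of t0. Changed at any time in 1 test of all 4 exposed groups against baseline were 8 of the 9 members, all but Cd86 (adjusted p = 0.059, edgeR), beside 56.8% of all genes. Without t0 375 the number of members called at t2 against t0 was 5 and at any time 5, and without t0 332 it was 3 at t4 and 5 at t6 against t0. In both settings 8 members were tested, since Pdcd1lg2 no longer passed the filter.

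**Figure D2:**
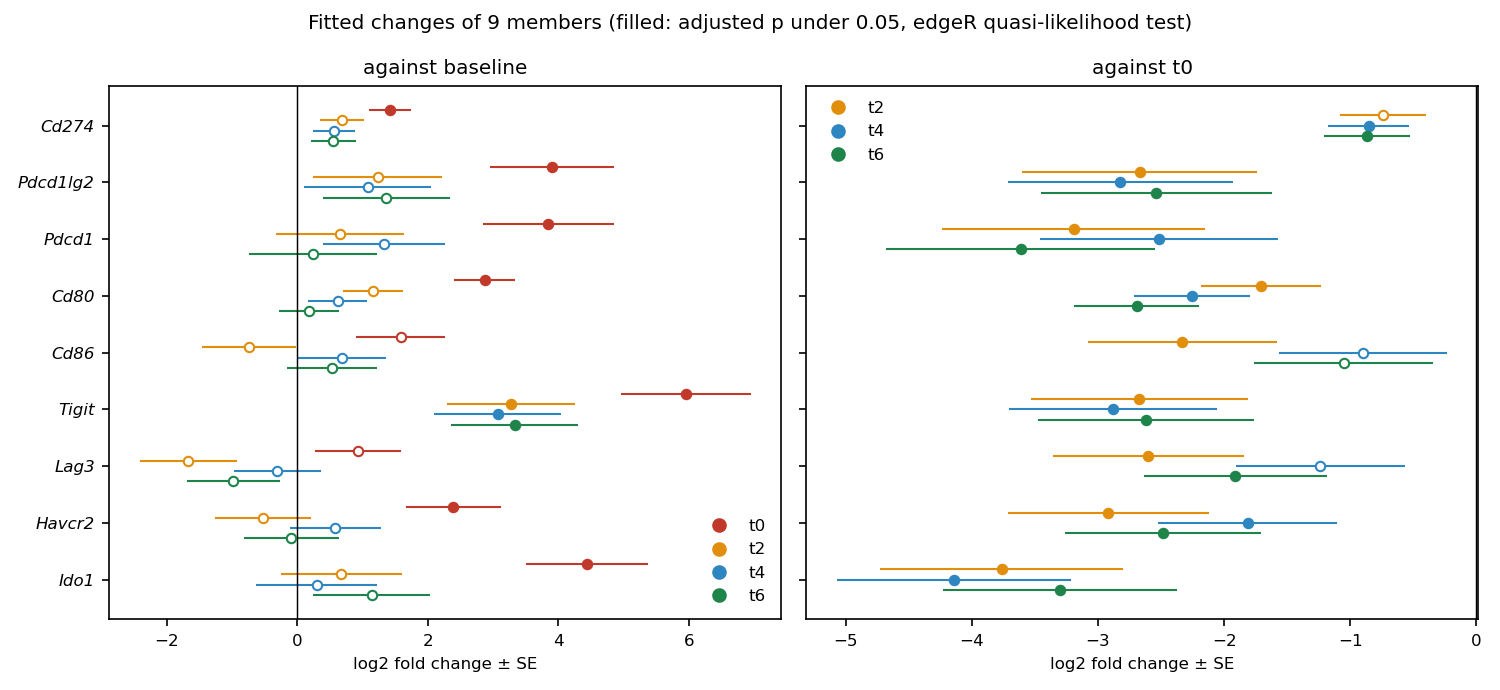
Log2 fold change ± SE (x axis) of the 9 tested members, against baseline on the left and against t0 on the right, with filled points for an adjusted p under 0.05 in the edgeR quasi-likelihood test. Against baseline 7 members are filled at t0 and only Tigit (3.07 to 3.33) later, and every point against t0 is below 0.

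Markers of immune cells and of the epithelium moved at the same time as these genes. The summed level of 5 pan-leukocyte markers was 26.6 to 107.5 CPM at baseline and 168.6 to 891.4 at t0, and 5 of 5 rose. The 13 T cell markers summed to 9.12 to 35.5 CPM (median 15.5) at baseline and 17.6 to 266.6 (median 22.6) at t0. Of 12 tested, 8 rose. The highest sum was that of t0 375, and the t0 median lay within the baseline range, unlike that of the pan-leukocyte markers. For 13 macrophage and monocyte markers the sums were 425.7 to 700.3 and 797.5 to 1408 CPM, with 10 rising, and for 12 dendritic cell markers 12.1 to 52.4 and 92.7 to 324.2 CPM, with 6 of 11 rising. At baseline the macrophage markers Cd68 and Mrc1 averaged 9.21 and 2.73 CPM, so that other genes of the list made up most of its sum. The 8 basal and squamous cell markers summed to 919.3 to 2610 CPM at baseline and 5763 to 12870 at t0, and 7 rose, while all 6 club cell and all 6 ciliated cell markers fell. Of 7 tested skeletal muscle markers 6 rose at t0, and of 6 mast cell markers 4 fell and 1 rose. Of B cell and plasma cell markers 4 of 8 rose, and of NK cell markers 1 of 2. Of endothelial and of regulatory T cell markers 1 of 5 each rose. Of erythroid markers 1 of 8 rose and of neutrophil markers 0 of 7. Over all 14847 tested genes 23.3% rose and 3304 fell at t0. Among the B cell and plasma cell markers that rose was Sdc1, which averaged 434.6 CPM at baseline and 598.8 at t0. The sums of that list had medians of 430.6 and 645.6 CPM. The pan-leukocyte sum was 55.6 to 93.3 CPM at t2, 52.7 to 136.3 at t4 and 41.9 to 116.5 at t6, and all 5 of its markers were lower than at t0 each time. Against t0 at t2, t4 and t6, 10, 0 and 4 of 12 T cell markers and 9, 11 and 8 of 13 macrophage markers fell. Of 11 dendritic cell markers 4, 4 and 3 fell, and of all tested genes 14.2%, 17.5% and 20.5%. All 6 ciliated cell markers rose each time. All 7 skeletal muscle markers were higher than at baseline at each later time, with sums of up to 1179 CPM against 8.96 at baseline. In t2 339, where Cd274 and Cd80 were at their t2 maximum, the T cell markers summed to 0.194 CPM with 10 of 13 at 0. Its dendritic cell markers summed to 47.2 CPM, the highest at t2, but 5 of 12 were at 0. Its macrophage and monocyte markers summed to 573.7 CPM, the lowest at t2, and its pan-leukocyte markers to 60.02 CPM, within the t2 range. The part of cell makeup in the members' changes was not tested.

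Set against Ptprc, the gene of the leukocyte antigen CD45, no member had a difference between t0 and baseline that passed after adjustment with all libraries in. For each library the log2 ratio of member to Ptprc was taken with 0.5 CPM added to both, and t0 was compared with baseline by a two-sided exact permutation test of 6 against 6 libraries, for which 0.00216 is the smallest possible p. Of 14 ratios, 10 to Ptprc and 4 to the sum of Cd3d, Cd3e and Cd3g, none passed after Benjamini-Hochberg adjustment, and 4 had an unadjusted exact permutation p under 0.05. Without baseline 345, the baseline library with the most Ptprc (27.05 CPM), 5 ratios passed. These were Lag3 (-2.46), Ctla4 (-1.81), Cd86 (-1.39) and Pdcd1lg2 (-1.33) to Ptprc and Lag3 to the Cd3 sum (-1.11), with adjusted p of 0.0303, and 0.0364 for Pdcd1lg2 (exact permutation). The ratio of Havcr2 to Ptprc was -1.73 ± 0.89 (SD, n = 6) at baseline and -1.66 ± 0.25 (SD, n = 6) at t0, a difference of 0.07 (exact permutation p = 0.872). With all libraries the lowest p-values were for differences of -1.20 for Cd86 (exact permutation p = 0.00866, adjusted 0.0707), -1.995 for Lag3 (exact permutation p = 0.013, adjusted 0.0707) and -1.54 for Ctla4 (exact permutation p = 0.0152, adjusted 0.0707). Cd274 differed by -1.18 (exact permutation p = 0.0563, adjusted 0.146). Against the Cd3 sum, Pdcd1 differed by 0.90 (exact permutation p = 0.0346, adjusted 0.121) and Tigit by 1.27 (exact permutation p = 0.0952, adjusted 0.174). With 0.1 CPM added, the Tigit ratio to Cd3 differed by 2.90 and passed (exact permutation, adjusted p = 0.0303). The added 0.5 CPM exceeds the baseline median of Pdcd1lg2, Pdcd1, Ctla4, Tigit and Ido1, so that their differences depend on the amount added. With 0.1 CPM added, Pdcd1lg2, Pdcd1 and Ido1 to Ptprc differed by 0.144, 0.602 and 1.227, in place of -1.02, -0.28 and -0.11. The Pdcd1lg2 difference without baseline 345 was taken with 0.5 CPM only. For Ctla4 to Ptprc the difference was negative with 0.1, 0.5 or 1 CPM added. Its own fitted rise without the filter was 3.58 ± 1.04 and that of Ptprc 2.48 ± 0.46. The reason for this contrast was not tested.

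**Figure D3:**
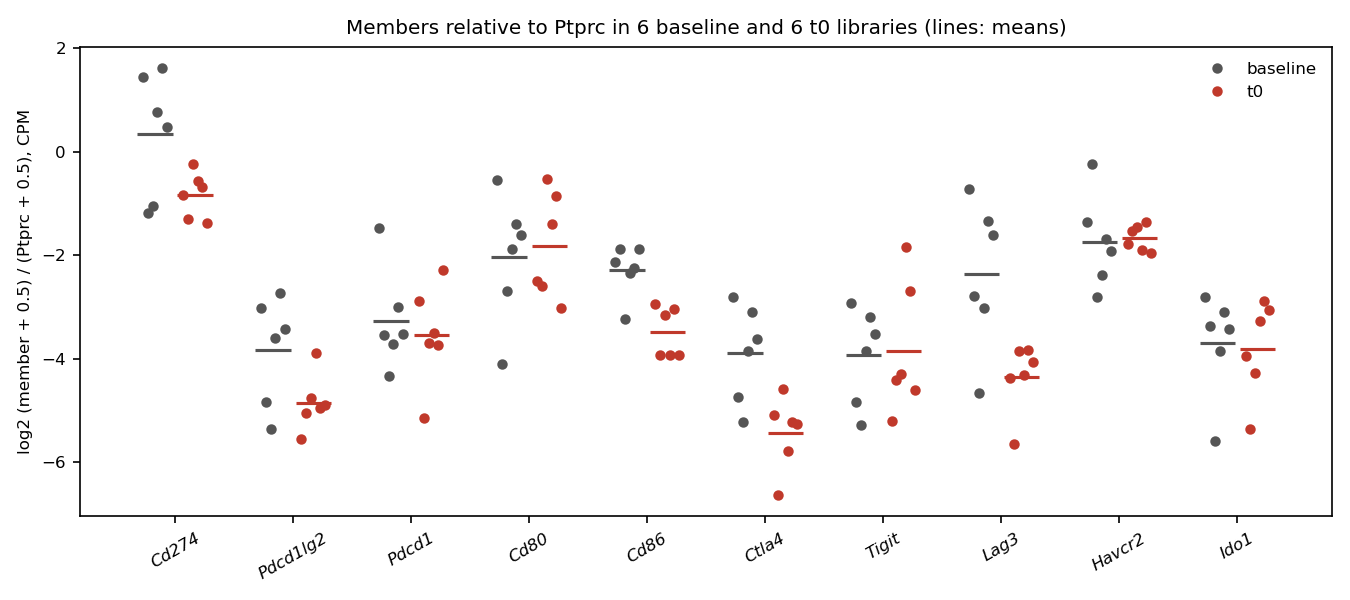
Log2 ratio of each member to Ptprc (y axis, 0.5 CPM added to both) in the 6 baseline and 6 t0 libraries, with group means as lines. The groups overlap for all 10 members, the means of Havcr2 are -1.73 and -1.66, and those of Cd86, Ctla4 and Lag3 differ by -1.20, -1.54 and -1.995.

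The pattern over libraries differed from member to member. The likeness of a gene to a member was measured as Pearson's r of log2(CPM + 1) over the 28 libraries, which share the differences between groups, and genes among the nearest 3 with r of at least 0.9 are named. Havcr2 ran closest to Hcls1 (0.947), a cytoskeletal adaptor of blood cells, and to Fam105a (0.937) and Trpv2 (0.928). Ido1 ran closest to Cxcl9 (0.914), an interferon gamma-induced chemokine, Hal (0.906) and the ubiquitin-like Ubd (0.904). Cd80 ran closest to the epithelial keratin Krt20 (0.901), and Tigit to Acsbg1 (0.912) and the calcium channel gene Cacna1i (0.908). Pdcd1lg2 was nearest to Cfp (0.904), the complement factor properdin, and Cd86 to Gpr132 (0.901). None reached 0.9 for Cd274, Pdcd1 or Lag3. With the Cd3 sum, r was 0.784 for Pdcd1, 0.810 for Ctla4, 0.502 for Tigit and 0.736 for Lag3. With the summed basal and squamous cell markers it was 0.493, 0.346, 0.805 and 0.261 in the same order. Without t0 375 and t2 339 the values with Cd3 were 0.540, 0.624, 0.264 and 0.397, and the others 0.539, 0.326, 0.830 and 0.202. Which cells carried Tigit RNA was not tested.

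**Figure D4:**
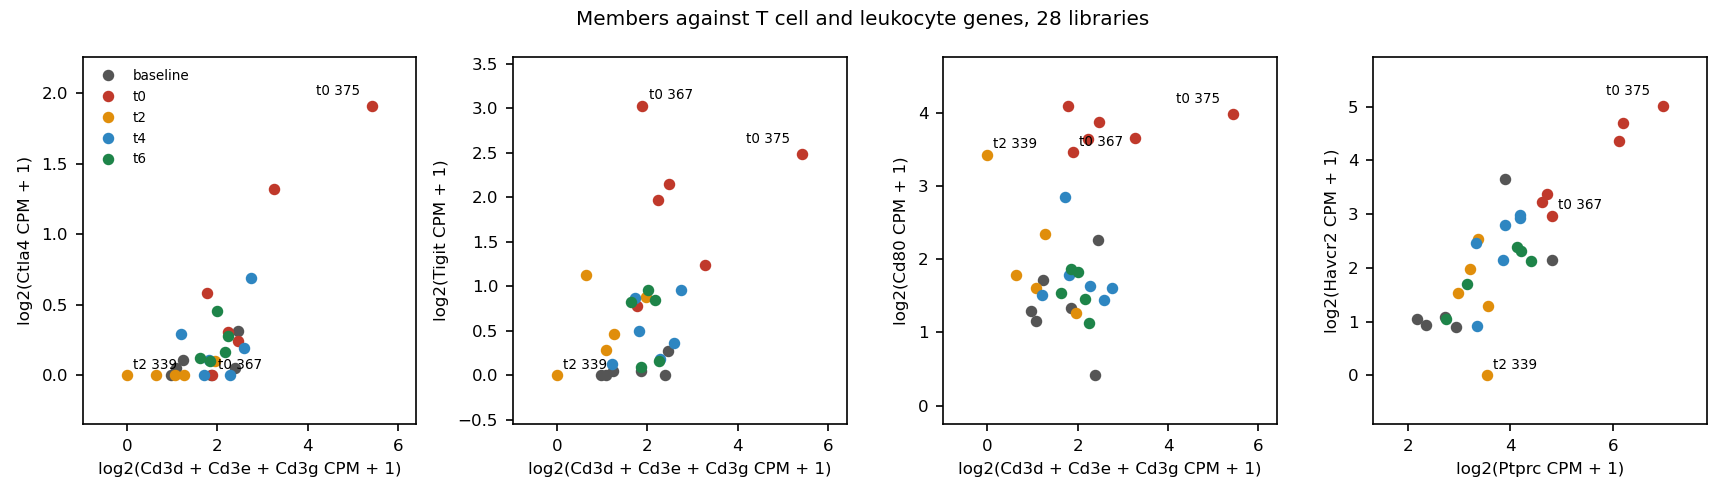
Level of Ctla4, Tigit and Cd80 against the summed level of Cd3d, Cd3e and Cd3g, and of Havcr2 against Ptprc, as log2(CPM + 1), 1 point a library and 1 colour a group. Library t0 375 is highest on both axes for Ctla4 and Havcr2, while t0 367 has the highest Tigit (7.17 CPM) with less Cd3 than t0 375, and t2 339 has Cd80 at 9.78 CPM with Cd3 at 0.

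Other genes of these pathways were counted from lists, beside 23.3% of all tested genes that rose at t0. Of the costimulation receptors and ligands 7 of 12 tested rose at t0 and none fell (median log2 difference 2.05), among them the adhesion receptor Cd2 (4.33 ± 0.63, adjusted p = 3.45e-06, edgeR), Cd48 (3.08 ± 0.62) and the ICOS ligand Icosl (1.83 ± 0.28). Of 8 other coinhibitory receptors 7 rose and none fell (median 2.43). Sirpa, the myeloid receptor for CD47, went from 15.1 ± 6.41 to 144.2 ± 87.9 CPM (SD, n = 6 each), Lilrb4 rose by 3.44 ± 0.60 and Ceacam1 by 1.73 ± 0.35. Of 14 coinhibitory ligands 5 rose and 2 fell (median 0.29), with the nectin Pvrl1 (1.82 ± 0.22) and the galectin Lgals3 (1.73 ± 0.29) higher and Igsf11, a ligand of VISTA, lower (-2.17 ± 0.30).

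In the list of the kynurenine and adenosine pathways 5 of 13 rose and 1 fell at t0 (median 0.71). The list also held Arg1 and Nos2, enzymes of arginine metabolism that belong to neither pathway. Kynu, which acts downstream of Ido1, rose by 5.76 ± 0.95 from 0.122 ± 0.118 to 6.88 ± 3.77 CPM (SD, n = 6 each), Arg1, the arginase of macrophages, rose by 4.14 ± 0.42, and Ccbl2 was lower (-1.12 ± 0.18). Of the genes of interferon gamma signalling 11 of 15 rose and none fell (median 1.27), among them both receptor chains, Ifngr1 (0.84 ± 0.12) and Ifngr2 (1.20 ± 0.18), and the induced GTPase Gbp2 (2.82 ± 0.47). Of 20 regulators of T cell activation and exhaustion 8 rose and 2 fell (median 0.82), led by Prdm1 (4.19 ± 0.62), Batf (1.46 ± 0.34) and Nfatc1 (0.86 ± 0.21), none of which is confined to T cells.

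At later times fewer genes of these lists were called, as was so over all tested genes, of which 11.2%, 10% and 4.54% rose. Against baseline at t2, t4 and t6, 0, 2 and 0 costimulation genes rose. Each time 1 coinhibitory receptor rose, Ceacam1 at t2 and t4 (1.29 ± 0.35 and 1.53 ± 0.34) and Cd244 at t6 (2.12 ± 0.52). Ceacam1 averaged 185, 452 and 535.3 CPM at baseline, t2 and t4, where the leukocyte gene Ptprc averaged 10.1, 9.21 and 13.3 CPM. Which cells carried Ceacam1 RNA was not tested. Of the interferon gamma genes 1, 1 and 0 rose, the called gene being Ifngr1 at t2 and t4 (0.45 ± 0.12 and 0.55 ± 0.12). Among the coinhibitory ligands Lgals3 was higher at all 3 later times, by 1.48 ± 0.30, 1.72 ± 0.29 and 1.53 ± 0.30, and the nectin Pvrl3 was lower (-1.55 ± 0.39, -1.69 ± 0.37 and -1.25 ± 0.39). In the kynurenine and adenosine list 0, 4 and 2 rose, with the arginase Arg1 (2.66 ± 0.41) and Nt5e (0.72 ± 0.16), the adenosine-producing CD73, higher at t6. Prdm1 was higher at t4 (2.03 ± 0.58) and t6 (2.22 ± 0.59). All values named from the lists passed the edgeR test.

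In the 6 unexposed wildtype libraries, whose values are given as TPM and so are scaled to length, Cd274 (1.55 ± 1.31 TPM, SD, n = 6) and Cd80 (1.12 ± 0.71) stood highest. Their ranges overlapped, from 0.25 to 3.98 and from 0.59 to 2.31 TPM. Next came Cd86 (0.453 ± 0.256), then Havcr2 (0.24 ± 0.164) and Lag3 (0.233 ± 0.21). Lowest were Pdcd1 (0.143 ± 0.248), Ctla4 (0.10 ± 0.245), Tigit (0.075 ± 0.131), Ido1 (0.0667 ± 0.163) and Pdcd1lg2 (0.005 ± 0.0122). Each pair of neighbours in this order differed by less than the larger of its SDs. The values of Pdcd1, Ctla4, Tigit and Ido1 rest mostly on animal 289, whose Ptprc was 22.7 TPM and Cd3e 44.4 TPM, where the other libraries had at most 1.2 and 0.74 TPM. Ctla4 and Ido1 were listed above 0 in that library alone, and without it Pdcd1 was at 0.044 ± 0.0522, Tigit at 0.026 ± 0.0581 and Cd274 at 1.06 ± 0.599 TPM (SD, n = 5). No test of genotype was made.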

How the data were processed

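RNA of brushed tracheal epithelium from 28 Gprc5a-/- and 6 wildtype mice was sequenced on the Ion Proton, per the labels' protocols. For the knockout libraries the submitters' processing notes name STAR 2.4.1d, Bowtie2 2.1.0, Partek and mm10, and for the wildtype libraries STAR 2.7.0f, RSEM 1.3.1 and GRCm38. The knockout table is named for RPKM, but the authors deposited estimated counts in it, since library sums differ and 76.3% of values above 0 lie within 0.01 of a whole number. They were rounded here. For wildtype mice the authors deposited expected counts and TPM, per the file headers. Use of strand in counting is not given in the sources used here.

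The 14847 genes that reached 1 CPM in 5 or more libraries were scaled by TMM and fitted over all 5 groups with the quasi-likelihood test of edgeR 4.0.16 in R 4.3.3. Adjusted p-values are Benjamini-Hochberg over all tested genes, with 0.05 as the threshold, and an SE is the absolute log2 fold change over the square root of F. Alternatives used limma 3.58.1, DESeq2 1.42.0, other scalings, filters and samples. Ratios were tested with scipy 1.17.1. Each library is a separate mouse, numbers are animal numbers and pair nothing, and depth was 15625276 to 37609816 counts. The scripts were tested on simulated data.

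The members and gene lists were chosen with earlier results of these data known. All 10 members are named, and from each pathway list up to 3 called genes with the smallest p in each comparison. Per member the 3 genes with the highest r are named if r is at least 0.9.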

Additional observations from a re-analysis of the deposited data

Results flagged for a closer look

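In 16 of the 50 sets of values (10 genes in 5 groups), 1 library stood apart from the rest of its group by Dixon's criterion, which chance meets in about 1 in 20 groups of normally distributed values. Values are CPM, which are bounded at 0, and the rate for such values was not measured.

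At baseline, animal 344 stood apart for Havcr2 (11.55, the others 0.873 to 3.43) and Ido1 (0.8774, the others 0 to 0.0773), and animal 345 for Ctla4 (0.2427, the others 0 to 0.0773) and Tigit (0.208, the others 0 to 0.0387). At t0, animal 375 stood apart for Pdcd1 (24.88, the others 1.35 to 8.75), Lag3 (6.932, the others 0.883 to 2.83) and Ido1 (14.44, the others 0.745 to 3.92). At t2, animal 339 stood apart for Cd274 (39.95, the others 7.54 to 13.0), and animal 334 was alone above 0 for Ctla4 (0.07606).

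At t4, animal 335 stood apart for Pdcd1 (3.928, the others 0.0817 to 1.52), Ctla4 (0.6137, the others 0 to 0.226) and Lag3 (2.117, the others 0.431 to 1.04). In the same group animal 336 did so for Cd80 (6.228, the others 1.73 to 2.45) and animal 371 for Ido1 (0.5717, the others 0.123 to 0.288). At t6, animal 368 stood apart for Pdcd1lg2 (0.8904, the others 0.0308 to 0.122) and Ido1 (1.206, the others 0.214 to 0.253). All 16 were the highest library of their group.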

How the results depend on the processing

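Few counts limit Ctla4, Tigit, Pdcd1lg2 and Ido1. No paired analysis was possible because the numbers of the libraries are animal numbers that no groups share. Of the 33 called differences of members, 373 of 429 values under other settings were called in the same direction, 40 were not called and 16 had no test. With 1 library left out these were 831, 73 and 20, the last all for Pdcd1lg2, which no longer passed the filter. None reversed.

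The number of members called against baseline was 1 at t2, t4 and t6. At t2 it was 2 by DESeq2, 0 by limma on log2(CPM + 1) and 0 with only the groups compared, and 1 to 2 with 1 library left out. By limma on log2(CPM + 0.1) and without t2 358 the 1 member was Lag3, which fell, and not Tigit. At t4 it was 0 by limma with 0.1 or 1 added, 0 with only the groups compared, 0 with sex as a covariate, and 0 to 1 with 1 library left out. At t6 it was 0 by both limma fits, 0 with only the groups compared, 0 without the 5 libraries that stand apart, and 0 to 1 with 1 library left out. Where none was called, 0 to 2 of the members tested had an unadjusted p under 0.05. With only the groups compared just 4, 5 and 4 members passed the filter at t2, t4 and t6. Tigit was not among them, since it reached 1 CPM in 0 baseline libraries and 1 library of each later group. The absence of calls in that setting is thus no loss of the Tigit call, which was not tested there. Against t0 the 8 members called at t2 became 3 (of 7 tested) with only the groups compared, 5 without t0 375 and t2 339 together (chosen after seeing the data), and 5 to 9 with 1 library left out. The 7 called at t4 became 4 (of 10 tested) with no filter and 4 (of 8 tested) without the 5 libraries, 3 to 7 with 1 left out, and 5 to 8 at t6 with 1 left out. At any time it was 5 to 9. Over all genes t6 against baseline gave 1311 calls, 833 with library totals alone, 2057 without t0 375 and t2 339, and 910 (without t6 349) to 2052 (without t2 339) with 1 left out. The cause of these changes was not tested.

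Reversals were seen only in differences that no test called. Havcr2 at t6 against baseline (-0.093) was 0.007 with library totals alone, 0.497 and 0.284 by limma with 0.1 and 1 added, 0.048 without the 5 libraries and -0.285 to 0.990 with 1 left out. Ido1 at t4 was -0.042 and Pdcd1 at t6 -0.100 without the 5 libraries. With 1 left out, Ido1 at t4 ran from -0.070 to 2.053, Pdcd1 at t6 from -0.098 to 0.587, Cd80 at t6 from -0.042 to 0.550, Havcr2 at t2 from -1.029 to 0.556 and Ido1 at t2 from -0.016 to 2.433. Of the ratios, Ctla4 to Cd3 was 0.391, and Ido1, Pdcd1 and Pdcd1lg2 to Ptprc were 1.227, 0.602 and 0.144 with 0.1 added. With 1 added, Havcr2 to Ptprc was -0.108 and Tigit to Ptprc -0.532. With 1 left out, ratios to Ptprc ran from -0.145 to 0.368 for Havcr2, -0.491 to 0.201 for Ido1, -0.532 to 0.076 for Pdcd1, -0.308 to 0.363 for Tigit and -0.191 to 0.522 for Cd80.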
